A study of Mus musculus with 16 samples.

Results

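A set of 8 genes that make or break down glycogen were followed across the tail tendon fascicles of wild type and Vhl knockout mice. They are Gyg, Ugp2, Gys1 and Gbe1 on the synthesis side, Pygl, Pygb and Pygm on the breakdown side, and Ppp1r3c, a regulator of both. The genes were taken by name, as enzymes and a regulator of glycogen metabolism, and all 8 of 8 were found by symbol among the 25719 genes counted. Fascicles are the fine collagen strands of the tail tendon. The 8 knockout libraries are labelled KO, which the study design gives as ScxCre;Vhlf/f: Cre recombinase driven by the tendon gene Scx acts on a floxed Vhl gene, so Vhl is lost in Scx-lineage cells and not in every cell of the strand. The 8 wild type libraries are labelled WT, and the labels give no Cre or floxed allele for them. Age, sex and the number of animals behind a library are not given in the labels, so p-values measure the spread between these libraries. The labels name no sort, so each library holds every cell type of the strand.

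Glycogen is a branched store of glucose. Ugp2 makes UDP-glucose, the activated sugar; glycogenin (Gyg) primes a new particle; glycogen synthase (Gys1) lengthens the chains and the branching enzyme (Gbe1) adds branch points. Glycogen phosphorylase releases glucose 1-phosphate and exists as isozymes named for liver (Pygl), brain (Pygb) and muscle (Pygm). Ppp1r3c, also called PTG, carries protein phosphatase 1 to the particle, where dephosphorylation turns synthase on and phosphorylase off. VHL marks hydroxylated HIF-α for degradation, and genes of glycogen synthesis are known to respond to HIF in cells at low oxygen.

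Of the 8 genes, 5 rose, 1 fell and 2 did not pass the test. Gys1, Gbe1 and Pygl rose several fold with no overlap between the genotypes, so transcripts of synthesis and of breakdown rose together. Ugp2 and Ppp1r3c rose by less, Pygb fell slightly, and Gyg and Pygm varied more among libraries of a genotype than between genotypes. The test was edgeR's quasi-likelihood test with Benjamini-Hochberg adjustment over all 14803 tested genes and a threshold of 0.05, which 48.3% of all tested genes passed, 25.6% higher and 22.7% lower in the knockout. In 3 of the genes all 8 knockout libraries lay above all 8 wild type libraries, which held for 10.8% of tested genes; in none did all lie below, which held for 8.61%. The median log2 fold change of the 8 was 0.70, against 0.02 over all tested genes.

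**Figure D1:**
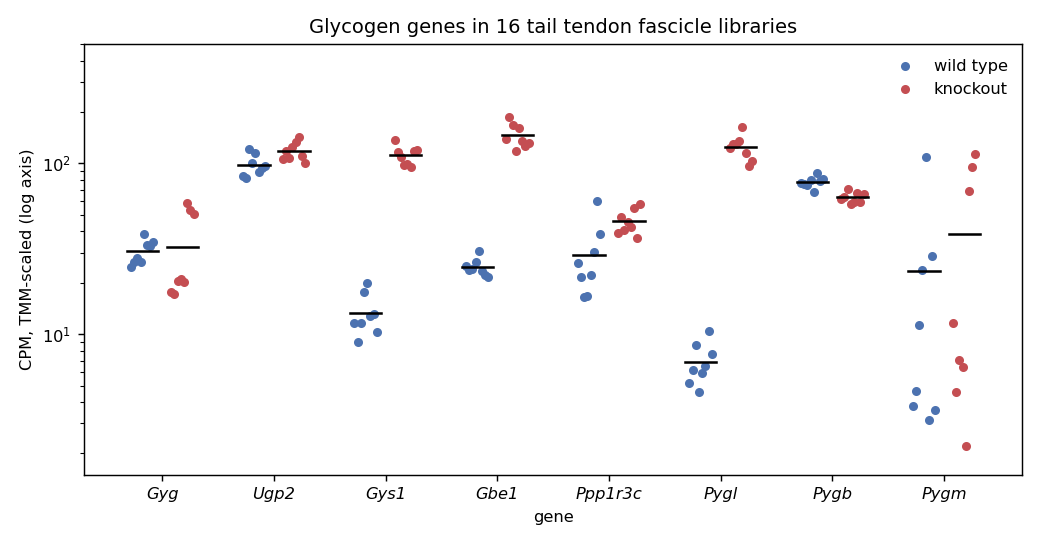
TMM-scaled CPM (log axis) of the 8 glycogen genes in each of 16 libraries; points are libraries and black bars are group means (n = 8 per genotype). Gys1, Gbe1 and Pygl separate by genotype, and the knockout points of Gyg and Pygm split into a higher set of 3 and a lower set of 5.

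Wild type libraries held 10792900 to 16379401 counts in total, knockout libraries 10488355 to 18753254. Levels are CPM, counts scaled to a common library size after TMM normalisation; 3 counts correspond to between 0.145 and 0.336 CPM. Vhl itself was at 20.5 ± 3.69 CPM in wild type and 9.35 ± 1.25 CPM in knockout libraries (SD, n = 8), without overlap. Scaling by total counts instead put the median log2 fold change over tested genes at 0.32, and then 85.4% of calls were increases, where TMM gave 53.0%; small differences are therefore relative to the scaling. Tendon markers were abundant in both genotypes: the 8 tenocyte markers summed to between 129837 and 379895 CPM in the wild type and between 76425 and 179855 CPM in the knockout, and 6 of the 8 were called lower. Skeletal muscle RNA was present in uneven amounts. The mean log2 CPM of 20 muscle markers, the muscle score, lay between 0.916 and 7.96 in the wild type and between 3.26 and 8.97 in the knockout. It was above 7.5 in wild type library 5 and in knockout libraries 6, 7 and 8. The difference of 2.52 between genotypes did not pass an exact permutation test (two-sided, p = 0.0632, n = 8), although it passed with total counts (2.81, p = 0.0463) and without any 1 of wild type libraries 5 and 7 and knockout library 5. Of the 20 markers 2 were called higher, Myh7 (log2 fold change 4.80, SE 1.18) and Myh2 (2.87, SE 0.909), the myosins of slow and fast oxidative fibres; Myh2 lost the call with the replicate block (2.01), with the score as a covariate (0.37) and without the 4 muscle-rich libraries (0.93). In bulk tissue, fewer cells of a type and less RNA per cell cannot be told apart. Markers of vessels and blood moved as well: 4 of 6 endothelial, 3 of 5 mural and 5 of 5 erythroid markers rose and 1 mural marker fell, with summed levels of 35.5 to 439, 233 to 1233 and 77.8 to 562 CPM in the knockout against 29.5 to 47.6, 208 to 283 and 15.1 to 50.7 CPM in the wild type. Their part in the results below was not tested.

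Gys1 (ENSMUSG00000003865, chromosome 7) encodes the glycogen synthase of muscle and most other tissues. It was measured at 9.001, 12.2 and 19.98 CPM in the lowest, median and highest wild type library and at 94.7, 113 and 137 CPM in the same order in the knockout. Every knockout library was far above the highest wild type library. The means were 13.2 ± 3.73 and 111 ± 14.2 CPM (SD, n = 8), and the log2 fold change was 3.07 (SE 0.144, edgeR, adjusted p = 4.02e-12). In the wild type the libraries highest in Gys1 were library 5 with 19.98 CPM and library 4 with 17.6 CPM, whose muscle scores were 7.96 and 5.80. In the knockout, muscle-rich library 6 was the lowest at 94.7 CPM, and muscle-rich libraries 7 and 8, at 118 and 119 CPM, were second only to library 1 at 137 CPM. Exons of Gys1 overlap those of Ruvbl2 on the other strand over 310 of 4789 bases (6.47%), and the strand setting of the counting is not given in the sources used here. Ruvbl2 rose as well, from 12.4 ± 0.915 to 29.6 ± 2.21 CPM, and its part in the Gys1 counts was not tested. Gys2, the liver synthase, had 5 counts over all 16 libraries and was not tested.

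Gbe1 (ENSMUSG00000022707, chromosome 16), the only branching enzyme, was measured at 21.5, 23.8 and 30.5 CPM (lowest, median, highest) in the wild type and at 118, 137 and 186 CPM in the knockout. The wild type libraries were tightly grouped and the knockout libraries all lay far above them. The means were 24.6 ± 2.87 and 146 ± 23.5 CPM (SD, n = 8), a log2 fold change of 2.56 (SE 0.0985, edgeR, adjusted p = 1.11e-13). The ratio to synthase was smaller on average in the knockout. Per kilobase of exon, the log2 ratio of Gbe1 to Gys1 was 0.77 ± 0.274 in wild type and 0.22 ± 0.280 in knockout libraries (SD, n = 8, a description without a test). The ranges overlapped, with 0.430 to 1.23 in the wild type and -0.152 to 0.542 in the knockout.

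Ugp2 (ENSMUSG00000001891, chromosome 11), which supplies UDP-glucose also to glycosaminoglycan and glycoprotein synthesis, was the most abundant of the 8 per length in both genotypes. It was measured at 82.0, 95.2 and 121 CPM in the wild type and at 101, 114 and 143 CPM in the knockout. The groups overlapped, and only knockout libraries 4, 5 and 6, at 124, 133 and 143 CPM, exceeded the highest wild type library. The log2 fold change was 0.27 (SE 0.0914, edgeR, adjusted p = 0.0205). Adding the muscle score to the fit gave 0.21, which did not pass (adjusted p = 0.0925). With total counts the rise was 0.56, where the median over tested genes was 0.32.

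Gyg (ENSMUSG00000019528, chromosome 3), the primer of new particles, did not pass the test: its mean was 30.6 ± 4.93 CPM in wild type and 32.3 ± 18.1 CPM in knockout libraries (SD, n = 8), a log2 fold change of 0.08 (SE 0.279, edgeR, adjusted p = 0.825). The knockout libraries were split. Knockout libraries 1 to 5 were measured at 17.6, 17.3, 20.6, 21.1 and 20.3 CPM, below every wild type library, whose values ran from 24.8 to 38.8 CPM. Knockout libraries 6, 7 and 8, the muscle-rich ones, were at 58.2, 53.3 and 50.3 CPM, above every wild type library. In the wild type, muscle-rich library 5 was the highest, at 38.8 CPM. The next highest were libraries 8 and 6, at 34.6 and 33.2 CPM, with low muscle scores of 0.916 and 1.59. Library 4, with a score of 5.80, was at 26.4 CPM. Without the 4 muscle-rich libraries, a choice made after the values were seen, Gyg was at 19.4 ± 1.78 CPM in 5 knockout and 29.5 ± 3.96 CPM in 7 wild type libraries, and the log2 fold change was -0.60 (SE 0.101, edgeR, adjusted p = 1.45e-04). In that fit 40.9% of 14900 tested genes were called, 19.0% lower in the knockout. With the muscle score as a covariate over all 16 libraries the value was -0.42 and did not pass (adjusted p = 0.203). The part of muscle RNA in the high values was not tested beyond these fits.

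Pygl (ENSMUSG00000021069, chromosome 12), the liver phosphorylase, had the largest increase of the 8. It was measured at 4.60, 6.31 and 10.4 CPM (lowest, median, highest) in the wild type and at 96.3, 126 and 163 CPM in the knockout. The groups were far apart. The means were 6.88 ± 1.93 and 124 ± 20.7 CPM (SD, n = 8), a ratio of 18.05, and the log2 fold change was 4.18 (SE 0.156, edgeR, adjusted p = 2.15e-13), rank 130 of 14803 tested genes from the top. Within the knockout the 3 muscle-rich libraries 6, 7 and 8 were the lowest, at 115, 96.3 and 103 CPM, and library 5, with the lowest muscle score, was the highest. Within the knockout, the libraries richest in muscle RNA thus had the least Pygl.

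Pygb (ENSMUSG00000033059, chromosome 2), the brain phosphorylase, was the only member called lower. It was measured at 68.4, 77.9 and 88.3 CPM in the wild type and at 57.9, 62.8 and 71.0 CPM in the knockout. The groups overlapped only through knockout library 3, at 71.0 CPM, and wild type library 5, at 68.4 CPM. The log2 fold change was -0.30 (SE 0.0580, edgeR, adjusted p = 2.70e-04). With total counts it was 0.01 and did not pass (adjusted p = 0.925), a scaling that moved all genes up by about the size of the fall.

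Pygm (ENSMUSG00000032648, chromosome 19), the muscle phosphorylase, did not pass the test (log2 fold change 0.74, SE 0.967, edgeR, adjusted p = 0.558). The wild type libraries 1 to 8 were at 3.81, 4.61, 11.3, 23.6, 108, 3.12, 28.7 and 3.57 CPM. The knockout libraries 1 to 8 were at 11.6, 4.59, 7.09, 6.43, 2.22, 68.8, 95.4 and 114 CPM. The high values are those of the muscle-rich libraries: wild type library 5 and knockout libraries 6, 7 and 8 held 68.8 to 114 CPM and the other 12 held 2.22 to 28.7 CPM. The muscle markers varied as widely: Acta1, skeletal α-actin, spanned 1.89 to 716 CPM in wild type and 39.0 to 1946 CPM in knockout libraries. Ckm, muscle creatine kinase, spanned 0.483 to 287 and 4.94 to 366 CPM in the same order. Mylpf, a fast myosin light chain, spanned 0.529 to 280 and 9.69 to 533 CPM, and Myh4, the fast IIb myosin, 1.06 to 198 and 1.29 to 84.8 CPM. Of the 320 values of the 20 markers 2 were at 0. In wild type library 8, which had the lowest score, Ckm had 5 counts, Tcap 3, Myl1 2 and Pvalb 0. With 1 library left out at a time the log2 fold change of Pygm ran from 0.28, without knockout library 8, to 1.78, without wild type library 5, and passed in none of the 16 fits. With the muscle score as a covariate Pygm was lower in the knockout (log2 difference -1.25, SE 0.254, adjusted p = 6.50e-04). Without the 4 muscle-rich libraries it was -0.84 and did not pass (adjusted p = 0.355). A pair of like score was taken as an example, without a rule set beforehand. Wild type library 4, with a score of 5.80, held 23.6 CPM and knockout library 1, with 6.10, held 11.6 CPM of Pygm. Wild type library 7, closer to knockout library 1 with a score of 6.04, held 28.7 CPM. The genotypes differed in the myosins named above, and the part of fibre type was not tested.

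**Figure D2:**
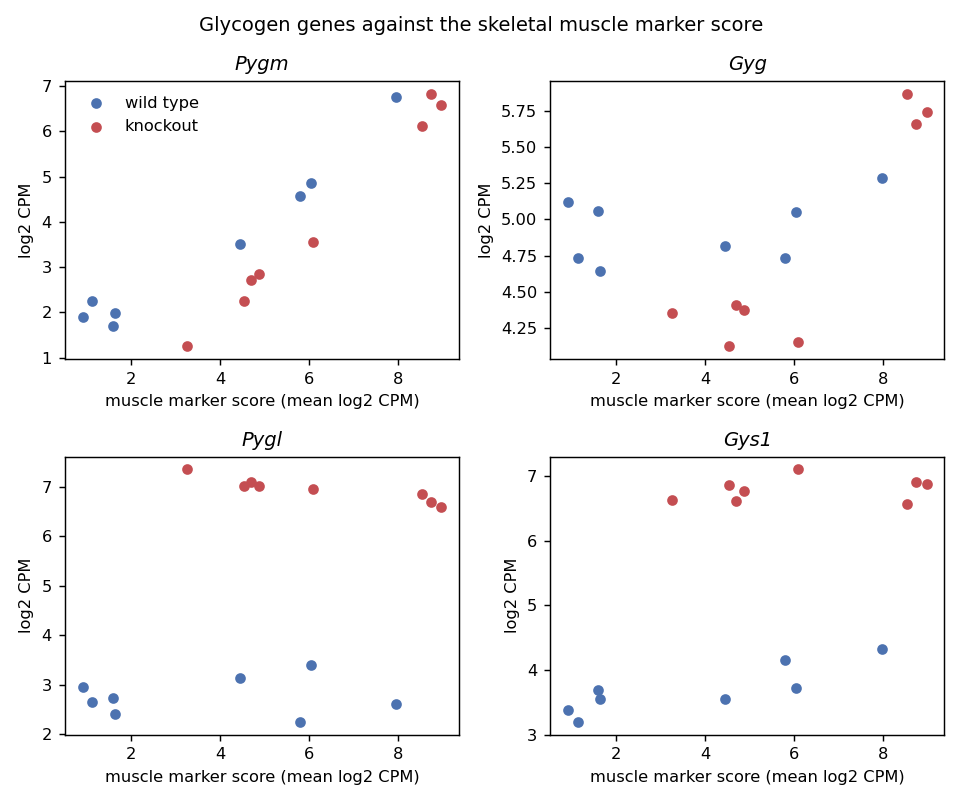
Log2 CPM of Pygm, Gyg, Pygl and Gys1 (y axes) against the muscle score, the mean log2 CPM of 20 skeletal muscle markers (x axes), 1 point per library. Pygm climbs with the score in both genotypes, Gyg is high only in the 3 knockout libraries with scores above 8, and Pygl and Gys1 stay apart by genotype at every score.

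Because the scores fall into separate clusters, 5 and 3 libraries in the knockout, no correlation coefficient over a genotype is given. Gys1, Gbe1 and Pygl were as far apart without the 4 muscle-rich libraries, with log2 fold changes of 3.19, 2.70 and 4.28.

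Ppp1r3c (ENSMUSG00000067279, chromosome 19) rose from 29.0 ± 14.6 to 45.7 ± 7.59 CPM (SD, n = 8), by 0.66 on the log2 scale (SE 0.232, edgeR, adjusted p = 0.0274). It was measured at 16.5, 24.1 and 60.3 CPM in the wild type and at 36.6, 44.0 and 58.1 CPM in the knockout. The overlap came from wild type library 7, the highest of all 16 at 60.3 CPM, and wild type library 8, at 38.4 CPM; the other 6 wild type libraries were at 16.5 to 30.4 CPM, below every knockout library. Libraries 7 and 8 are also the 2 wild type libraries with transcripts of Y-linked genes. In the knockout the 2 such libraries, 1 and 6, held 39.1 and 54.8 CPM, within the range of the others. With the Y-linked level as a covariate the value was 0.75 (adjusted p = 0.00347), and without wild type library 7 it was 0.90 (adjusted p = 2.56e-04). The call was lost when the muscle score was added to the fit (0.62, adjusted p = 0.0707), without the 4 muscle-rich libraries (0.54, adjusted p = 0.153), and without any 1 of wild type libraries 2, 3 and 5 and knockout library 8, where the adjusted p lay between 0.0511 and 0.0536.

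The promoters of the 5 genes that rose are shown because VHL acts on HIF-α, whose binding core can be read from the letters. Each is the 250 bases before the gene's start in RefSeq on GRCm38.p6, 5′ to 3′ on the gene's strand; the counts were made with GRCm39, per the submitters' processing notes, so positions are those of the promoter table alone. Capitals mark the core of the hypoxia response element, ACGTG or GCGTG, on either strand (CACGT or CACGC when read on the other).
Gys1, chr7:45434589-45434838, plus strand: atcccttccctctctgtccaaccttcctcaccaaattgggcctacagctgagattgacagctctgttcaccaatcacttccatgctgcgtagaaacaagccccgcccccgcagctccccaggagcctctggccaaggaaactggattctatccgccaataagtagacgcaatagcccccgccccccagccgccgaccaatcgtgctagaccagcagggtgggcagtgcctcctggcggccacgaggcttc
Gbe1, chr16:70313699-70313948, plus strand: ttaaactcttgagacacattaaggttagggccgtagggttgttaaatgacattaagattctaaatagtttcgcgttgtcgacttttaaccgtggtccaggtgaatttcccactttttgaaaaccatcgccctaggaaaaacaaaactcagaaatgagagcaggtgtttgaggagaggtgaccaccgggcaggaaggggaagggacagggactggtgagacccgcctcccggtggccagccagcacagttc
Pygl, chr12:70227684-70227933, minus strand: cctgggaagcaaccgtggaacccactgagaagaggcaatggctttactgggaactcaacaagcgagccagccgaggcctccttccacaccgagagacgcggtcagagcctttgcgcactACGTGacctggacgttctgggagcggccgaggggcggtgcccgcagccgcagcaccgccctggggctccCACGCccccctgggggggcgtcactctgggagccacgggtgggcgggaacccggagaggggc
Ppp1r3c, chr19:36736605-36736854, minus strand: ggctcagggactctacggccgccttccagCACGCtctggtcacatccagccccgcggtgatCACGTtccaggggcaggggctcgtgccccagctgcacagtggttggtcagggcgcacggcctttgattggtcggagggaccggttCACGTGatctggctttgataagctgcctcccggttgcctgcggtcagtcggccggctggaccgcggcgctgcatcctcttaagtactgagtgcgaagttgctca
Ugp2, chr11:21371268-21371517, minus strand: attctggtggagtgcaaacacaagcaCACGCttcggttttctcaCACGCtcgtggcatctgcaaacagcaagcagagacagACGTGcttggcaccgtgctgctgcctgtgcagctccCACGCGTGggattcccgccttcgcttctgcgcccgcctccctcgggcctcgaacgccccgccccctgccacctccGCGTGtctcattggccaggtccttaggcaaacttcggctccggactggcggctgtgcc
Pygl held the core at 2 places, whose first bases lie 131 and 62 bases before the start. Ppp1r3c held it at 3 places, 221, 189 and 104 bases before the start, the last being CACGTG, which reads the same on both strands and is 1 place. The Ugp2 window shown held it at 5 places, 224, 206, 169, 133 and 58 bases before the start, and its second window in the table held none. These letters were not in the windows of Gys1 and Gbe1. The core is common, present in 38.6% of 32851 windows of this length. All 8 genes matched the table with 9 windows, and 6 windows held the core: 1 each of Gyg, Pygl, Pygb, Pygm and Ppp1r3c and 1 of the 2 of Ugp2. Among the genes that did not rise, Pygb and Pygm held it at 2 places each and Gyg at 1. A match is a description of letters.

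Ppp1r3c belongs to a family of subunits that target protein phosphatase 1 to glycogen, and of its 7 tested members 5 rose and none fell. Among all tested genes 25.6% were called higher and 22.7% lower, so few falls would be looked for among 7 genes. Ppp1r3g was at 8.31 ± 1.64 CPM in the knockout, from 6.11 to 10.2 CPM, whereas the wild type had 2 counts in all and 0 in 6 of 8 libraries. The knockout was at least 31.1-fold higher, set against a floor of 3 counts in each wild type library (edgeR, adjusted p = 3.55e-13). Ppp1r3g passed the expression filter only through the knockout libraries, where it was high. Its call and its place among the 5 that rose depend on that. Ppp1r3b, the liver-type subunit also called GL, was measured at 1.01, 1.46 and 2.80 CPM in the wild type and at 21.5, 27.5 and 32.6 CPM in the knockout. The groups were far apart, and the log2 fold change was 4.10 (SE 0.166, edgeR, adjusted p = 2.24e-13). The other 2 that rose, Ppp1r3d and Ppp1r3e, had log2 fold changes of 0.82 and 0.99; they, Ppp1r3a and Ppp1r3f fall outside the naming rule and are named with their values known. Ppp1r3f differed by -0.25 and the muscle subunit Ppp1r3a by 1.57 without passing (adjusted p = 0.183 and 0.247). Ppp1r3a was at 24.96 to 28.1 CPM in knockout libraries 6, 7 and 8, all muscle-rich. It was at 17.0 CPM in muscle-rich wild type library 5 and at most 5.37 CPM elsewhere. Summed over the family, mean levels per kilobase of exon were 17.3 CPM in wild type and 36.3 CPM in knockout libraries. Ppp1r3c held the largest part in both.

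**Figure D3:**
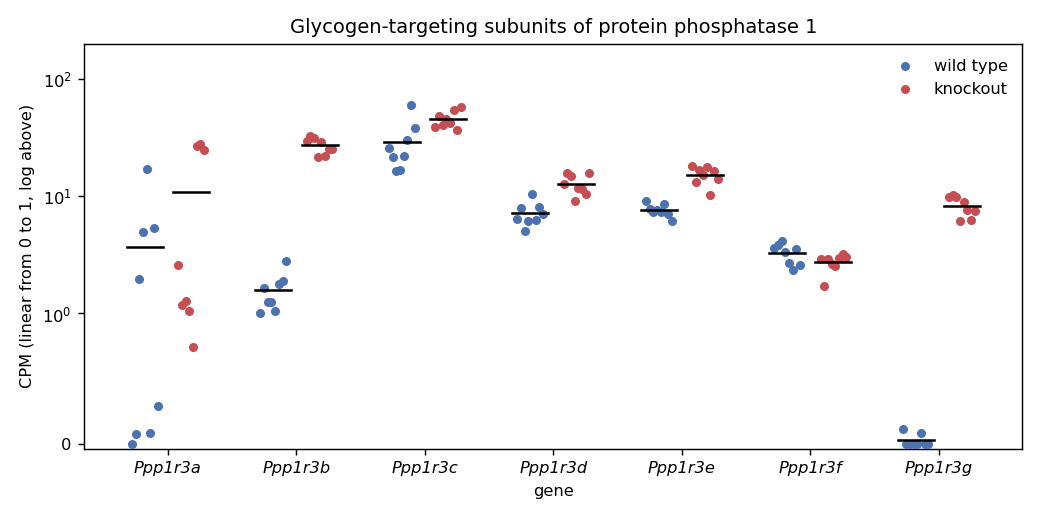
CPM of the 7 glycogen-targeting subunits of protein phosphatase 1 (linear from 0 to 1, log above); points are libraries and black bars are group means (n = 8 per genotype). Ppp1r3b and Ppp1r3g separate by genotype, with wild type Ppp1r3g at or near 0, and Ppp1r3a is spread over both genotypes.

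The order of the 8 transcripts changed. Levels are compared per kilobase of annotated exon (GENCODE M21), as mean ± SD over 8 libraries. The length joins the exons of all annotated transcripts of a gene, as 6.895 kb for Pygl, 4.809 for Pygb and 3.218 for Pygm. The transcripts present may be shorter, so the order here and the phosphorylase shares below depend on these lengths. In the wild type the order was Ugp2 (31.9 ± 4.63 CPM per kb), Pygb (16.2 ± 1.19), Gyg (13.1 ± 2.10), Ppp1r3c (10.7 ± 5.34), Pygm (7.27 ± 11.1), Gbe1 (4.60 ± 0.536), Gys1 (2.76 ± 0.779) and Pygl (0.998 ± 0.280). Only the steps from Ugp2 to Pygb and from Gys1 to Pygl had no overlap of ranges, and the neighbours in between overlapped. In the knockout Ugp2 still led (38.4 ± 4.84), followed by Gbe1 (27.2 ± 4.40), Gys1 (23.3 ± 2.96), Pygl (18.02 ± 3.00), Ppp1r3c (16.8 ± 2.78), Gyg (13.8 ± 7.71), Pygb (13.2 ± 0.960) and Pygm (12.0 ± 14.4). There every pair of neighbours overlapped. The wild type mean of Pygm was carried by library 5, at 33.7 CPM per kb. Its median of 2.47 was below those of Gbe1 (4.44) and Gys1 (2.55), and it was above Gbe1 in 3 of 8 libraries. Gbe1, Gys1 and Pygl stood directly behind Ugp2 in the knockout.

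The phosphorylase pool changed its makeup. Per length, Pygb made up 29.2% to 90.6% of the summed phosphorylase transcripts in the wild type (median 81.8%), and Pygl 1.77% to 6.19% (median 4.79%). In the knockout Pygl made up 23.3% to 64.4% (median 52.2%) and Pygb 21.6% to 41.3% (median 34.7%). Pygl was the leading isozyme in knockout libraries 1 to 5, whereas Pygm led in knockout libraries 6, 7 and 8, with 41.1% to 55.2%, and in wild type library 5, with 69.1%. Shares are relative: Pygb itself differed by -0.30 on the log2 scale. The ratio of synthase to all phosphorylases shifted too: log2 of Gys1 over their sum was -3.11 ± 0.259 in wild type and -0.86 ± 0.420 in knockout libraries (SD, n = 8), with no overlap (highest wild type -2.75, lowest knockout -1.40). Against Pygl alone the ratio went the other way, from 1.47 ± 0.628 to 0.38 ± 0.352. These ratios are given as a description without a test.

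**Figure D4:**
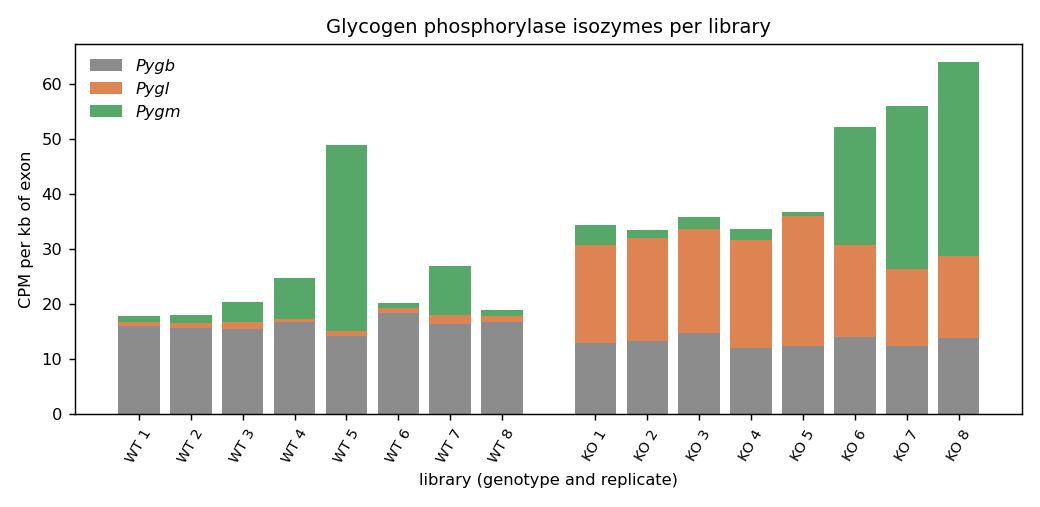
Stacked bars of Pygb, Pygl and Pygm in CPM per kb of exon (y axis from 0) for each wild type (WT) and knockout (KO) library. Pygl is a thin band in every wild type library and a broad one in every knockout library, and Pygm is large in WT 5 and KO 6, 7 and 8.

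Glycogenin and synthase changed in relation to each other. In the wild type Gys1 was below Gyg per length in every library, with a log2 ratio from -2.79 to -1.61. In knockout libraries 1 to 5 it was above, at 1.19 to 1.93. In the muscle-rich knockout libraries 6, 7 and 8 the ratio was -0.33, 0.11 and 0.21.

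The wider pathway was described with a list of 31 further genes, of which 29 were tested; Gys2 and G6pc, the hepatic glucose 6-phosphatase, were too low. Of these 13 rose, 2 fell and 14 did not pass, with a median log2 fold change of 0.21 against 0.02 over all tested genes. No overlap with higher knockout levels held for 10 of the 29 tested, against 10.8% of all tested genes. Among the 10 were Ppp1r3g and Stbd1, which passed the expression filter only through the knockout libraries. The shares of all tested genes called higher and lower were 25.6% and 22.7%. On the way from glucose to glucose 1-phosphate, the hexokinases Hk2 and Hk1 had log2 fold changes of 3.52 (SE 0.253) and 1.74 (SE 0.0814), with Hk2 at 4.76, 8.78 and 22.2 CPM in the wild type and 106, 121 and 133 CPM in the knockout. Pgm1, the phosphoglucomutase that joins glucose 6-phosphate to glucose 1-phosphate in both directions of the pathway, was measured at 33.6, 42.5 and 60.7 CPM in the wild type and at 128, 153 and 197 CPM in the knockout, a log2 fold change of 1.86 (SE 0.112, edgeR, adjusted p = 6.88e-11); its exons overlap those of Itgb3bp, so its counts are uncertain to that extent. Its relatives Pgm2 and Pgm2l1 rose by 0.64 and 0.52.

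On the breakdown side, none of the 5 tested subunits of phosphorylase kinase, which switches phosphorylase on, was called higher. Its α subunits Phka1 and Phka2 fell, by 0.24 and 0.39 on the log2 scale, and lost the call with total counts, at 0.06 and -0.09. The β subunit Phkb differed by -0.21 and did not pass (adjusted p = 0.0536). It was called lower in 10 of 28 alternatives, among them the fit with the muscle score (-0.33, adjusted p = 0.00427) and that without the 4 muscle-rich libraries (-0.28, adjusted p = 0.0243), and was at 0.09 with total counts (adjusted p = 0.457). The γ subunits Phkg1 and Phkg2 differed by 0.12 (adjusted p = 0.879) and 0.02 (adjusted p = 0.816). Phkg1 was called lower in the fit with the muscle score (-0.999, adjusted p = 0.00331), and Phkg2 passed with total counts at 0.33, where the median of tested genes was 0.32.

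Of genes that bind or edit the particle, move glucose 6-phosphate or inhibit protein phosphatase 1, the following passed. Epm2a, laforin, a phosphatase of glycogen, was at 18.01 ± 1.82 CPM in wild type libraries and rose to 63.7 ± 8.05 CPM, by 1.82 on the log2 scale (SE 0.0831, edgeR, adjusted p = 1.28e-12). Stbd1, which binds glycogen and links it to autophagy, was measured at 0.224, 0.501 and 1.29 CPM in the wild type and at 7.07, 12.7 and 24.2 CPM in the knockout. No library had a count of 0, although wild type library 1 had 2 counts, under the floor of 3. Its log2 fold change was 4.56 (SE 0.341, edgeR, adjusted p = 4.14e-09), and it too passed the expression filter only through the knockout libraries. Within the knockout Stbd1 was highest in the muscle-rich libraries 6, 7 and 8, at 17.8, 24.2 and 21.3 CPM, and without the 4 such libraries the value was 4.34. Slc37a4, the transporter of glucose 6-phosphate into the endoplasmic reticulum, rose by 1.15 (SE 0.103). Ppp1r1a, an inhibitor of protein phosphatase 1, rose by 2.27 (SE 0.545) with overlap of the groups. It was highest in muscle-rich knockout libraries 6, 7 and 8, at 4.26, 4.99 and 7.56 CPM, against 1.11 to 1.77 CPM in the other 5, and muscle-rich library 5 was the highest wild type library at 2.11 CPM. Without the 4 muscle-rich libraries its log2 fold change was 1.72, and with the muscle score in the fit it was 1.30. Beyond these and the 2 targeting subunits above, 11 tested genes of the list did not pass, among them both forms of glycogen synthase kinase and the catalytic subunits of protein phosphatase 1. Their log2 fold changes lay between -0.36 and 0.21 apart from Ppp1r3a.

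**Figure D5:**
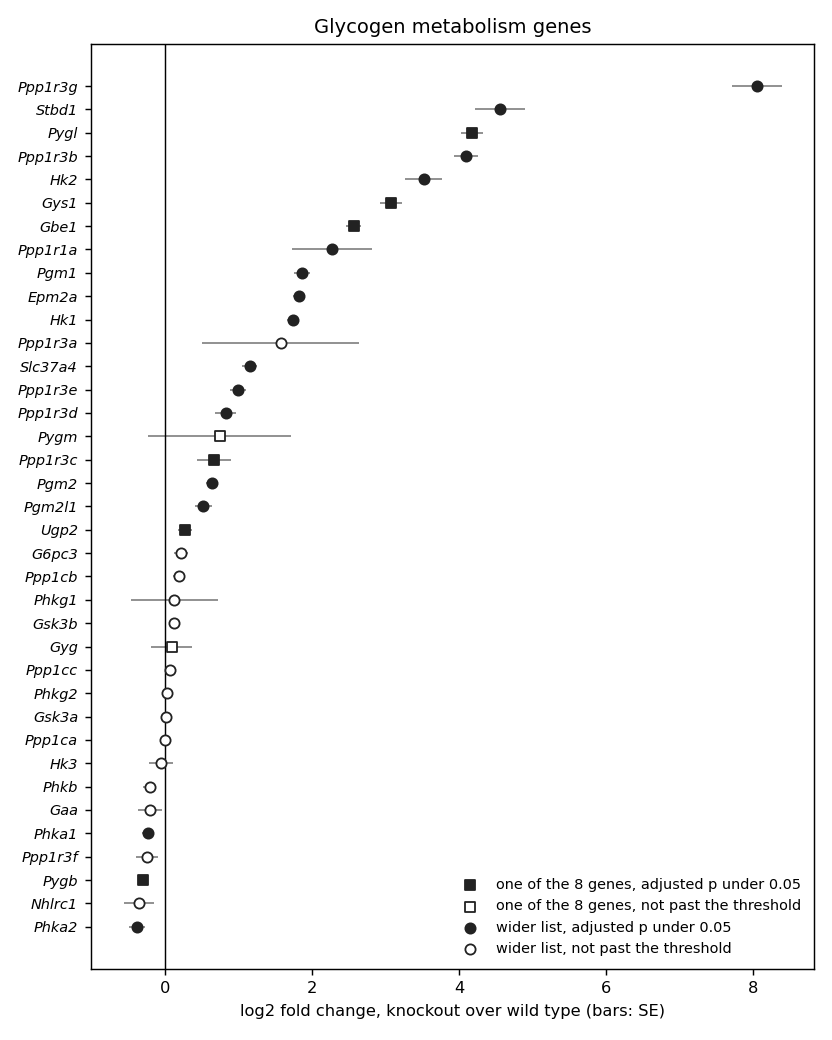
Log2 fold change of knockout over wild type with SE (bars) for the 8 genes (squares) and the 29 tested genes of the wider list (circles); filled symbols passed an adjusted p of 0.05. Ppp1r3g, Stbd1, Pygl and Ppp1r3b lie above 4 and Phka2 is the lowest, at -0.39.

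Genes with a like pattern were named by the root-mean-square difference of log2 CPM over the 16 libraries. Each gene was first centred on its mean, and 13680 genes were compared. The genotype difference stays in this measure, so a near gene can simply be one with a like log2 fold change. The neighbours of Gbe1 had log2 fold changes of 2.43 to 2.51, those of Pygl 4.15 to 4.39 and those of Gys1 2.81 to 3.21. The nearest to Gbe1 were Egln1 (0.13 log2 units), Pgam1 (0.16) and Fam162a (0.17). The nearest to Pygl were P4ha2 (0.21), Slc2a1 (0.23) and Glis3 (0.26), and the nearest to Gys1 were Aplp1 (0.20), C4b (0.27) and Cyp26b1 (0.27). Pygb was nearest to Cyhr1 (0.07) and Ugp2 to Acot9 (0.09), 2 genes with small differences of their own (-0.30 and 0.20). For Pygm the closest were Apobec2 (0.53), Asb2 (0.54) and Kcnc1 (0.54), at larger distances than for the other 7 genes. Gyg was nearest to Iqschfp (0.21) and Ppp1r3c to Ms4a7 (0.30).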

How the data were processed

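RNA was sequenced from 16 libraries of mouse tail tendon fascicles, 8 per genotype, grouped by their titles. The authors deposited 1 column of whole-number counts per gene and library. Per the submitters' processing notes, kallisto, featureCounts and GRCm39 were used; their roles, the annotation and the strand setting are not given in the sources used here. Of 25719 identifiers 25614 had a symbol. Exon lengths and overlaps came from GENCODE M21 (GRCm38).

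The counts were tested with edgeR 4.0.16 (R 4.3.3): default expression filter, TMM, robust quasi-likelihood fit, genotype as the only term, two-sided, Benjamini-Hochberg adjustment over 14803 genes. Ppp1r3g, Stbd1 and Ppp1r1a passed the expression filter through the knockout libraries, where they were higher, and would not have passed through the wild type alone. Log2 CPM used a prior count of 2. On simulated counts for this comparison the fit recovered 183 of 200 changed genes among 14732 (91.5%), and 2.66% of its calls were false. In the measured libraries 48.3% of tested genes were called. Recovery and false calls with so large a share of changes were not tested. No 2 libraries of a genotype differed by counting noise alone (smallest chi-square per degree of freedom 6.56). This does not show whether any 2 came from the same animal. The floor of 3 counts covers counting error only, whereas the SDs and SEs include the spread between libraries. The labels give no batch. Alternatives were other scalings and filters, DESeq2 1.42.0, limma-voom 3.58.1, non-robust dispersion, covariates, a replicate block and each library left out.

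The members and lists were chosen with earlier results of these data known. Named were the 8 members, and of the wider list each called gene with an absolute log2 fold change of at least 1, the phosphoglucomutases and the phosphorylase kinase subunits. Of the wider list, 2 genes are not reported here and were left out of its counts. For muscle, Acta1, Ckm, Myh4 and Mylpf were fixed; Myh2, Myh7, Tcap, Myl1 and Pvalb were chosen after their values were seen. Marker lists for adipocytes (1 of 7 tested, called higher), macrophages (2 of 6 tested called higher) and keratinocytes (2 tested, both called lower) were also summarised. Exact permutation tests used all 12870 assignments of libraries, with a smallest possible p of 0.000155.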

Additional observations from a re-analysis of the deposited data

Results flagged for a closer look

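Among 50 checks of 8 libraries each, the highest or lowest library stood apart from the rest in 1. About 1 check in 20 does so by chance, which would be 2.50 here. Epm2a was highest in wild type library 8, at 4.46 log2 CPM against 4.21 in the next. In none of the 8 members did a library stand apart by this measure.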

How the results depend on the processing

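Gys1, Gbe1 and Pygl kept their direction and their call under all 28 alternatives, with log2 fold changes of 2.91 to 3.37, 2.51 to 2.86 and 4.10 to 4.47. The number of members called was 5 or 6 throughout (6 with all libraries, 5 with total counts, 5 with the muscle score as a covariate, 5 to 6 when each library was left out), but not always the same genes. Without the muscle-rich libraries Gyg entered and Ppp1r3c left. The wider list had 15 to 20 calls against 15.

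Gyg changed sign with limma-voom (-0.0049), with the replicate block (-0.0859), with the muscle score as a covariate (-0.42), without the 4 muscle-rich libraries (-0.60) and without any 1 of knockout libraries 6, 7 and 8 (all single-library values -0.0924 to 0.176). Pygm lay between 0.285 and 1.78 without single libraries and changed sign with the muscle score (-1.25) and without the muscle-rich libraries (-0.84), Pygb with total counts (0.0076). With total counts Phka1 reached 0.0649 and Phkb 0.0901, while Phkb was called lower in 10 other alternatives. Phkg1 was -0.999 with the muscle score (a passing decrease), -0.60 without the muscle-rich libraries and negative without any 1 of wild type library 6 and knockout libraries 6, 7 and 8 (all single-library values -0.126 to 0.711). Phkg2 was -0.0137 with limma-voom and negative without any 1 of 4 libraries (all single-library values -0.0054 to 0.0637). The cause was not tested.

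The muscle score difference passed with total counts (2.81), and over single libraries left out it lay between 2.12 and 3.13, passing at 2.86 to 3.13. Of 16 relations of members with the score (Pearson, exact permutation), 5 passed over 8 libraries. They were Gys1 and Pygm in the wild type and Gyg, Pygl and Pygm in the knockout. The knockout scores form clusters of 5 and 3 libraries, so a gradual relation and a gap between clusters cannot be told apart there. By rank (Spearman, exact permutation) Gyg in the knockout did not pass (adjusted p = 0.184). Without the 2 farthest libraries 1 relation passed, Pygm in the knockout. With 6 libraries the smallest exact p is near 0.0014 before adjustment, so a call was still possible. For the lost calls, the smaller number of libraries and a less stable relation cannot be told apart.

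The labels state no pairing of same-numbered libraries. Of 8 such pairs 3 deviated together by a correlation over 0.1, and 1 of 8 knockout libraries correlated best with its own number. Uneven muscle RNA enters these correlations, so they cannot decide whether libraries were paired. With the replicate block 6 members, 16 genes of the wider list and 7010 of all genes were called, against 6, 15 and 7151. Over all genes the other settings gave 6101 to 9685 calls. Genes near or under 1 CPM, such as wild type Stbd1, are limited by depth.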
